A study of Mus musculus with 8 samples.

Results

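Claudins and their partners at the tight junction were followed in the mouse line R1/E of embryonic stem cells (ESCs) after knock-down of Rad21, the gene of the kleisin protein that closes the cohesin ring. The genes are Cldn3, Cldn4, Cldn6, Cldn7, Ocln, F11r, Tjp1, Tjp3 and Cgn. They were chosen by name, and every probe set that the array annotation assigns to 1 of these symbols alone was taken, which gave 15 probe sets for 9 genes out of 45037 probe sets and 18193 genes measured. Cells of the knock-down group (4 arrays) were transfected with esiRNA against Rad21 for 48 h, and cells of the control group (4 arrays) with esiRNA against luciferase (Luc), a gene that mouse cells lack. An esiRNA is an enzymatically cut pool of short interfering RNAs, so the gene itself was intact in both groups. Both groups were grown without feeder cells on gelatin, in serum and LIF, and received 800 ng esiRNA per well of 80000 cells. In the labels, the cultures of a group are biological replicates 1 to 4. Values are GCRMA signals on the log2 scale, in which a difference of 1 is a 2-fold difference, and signals of transcripts that are not detected lie on a plateau at about 2 to 3. A change is the Rad21 knock-down minus the Luc control, a call is an adjusted p under 0.05 over all probe sets (limma), and a gene is represented by its brightest probe set. Because whole cultures were measured, fewer cells that use a gene and less RNA per cell cannot be told apart.

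Tight junctions seal the space between epithelial cells just below their apical surface. Claudins are membrane proteins with 4 passes whose extracellular loops meet those of the neighbouring cell and set which ions can slip between cells, and occludin (Ocln) and the immunoglobulin protein JAM-A (F11r) lie in the same strands. On the inner side the ZO proteins, among them ZO-1 (Tjp1) and ZO-3 (Tjp3), bind the tails of claudins and, with cingulin (Cgn), tie the strands to actin. ESCs are epithelial in character and carry E-cadherin, and in the embryo tight junctions form as the outer cells of the morula become trophectoderm.

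The knock-down was measured first. All 3 Rad21 probe sets fell, by 1.58 on the log2 scale at the brightest (limma adjusted p = 0.00222). At none of them did the knock-down arrays overlap the Luc arrays. The brightest changed by -1.80 within replicates 1 and 2 and by -1.36 within replicates 3 and 4. The others also fell less within replicates 3 and 4 (-0.87 against -1.09, and -2.23 against -2.95). At the brightest, a test of the difference between these pairs did not pass (limma adjusted p = 0.201). Of 10 ESC markers, all had a mean of at least 4, and their mean level ran from 13.83 to 13.87 on the knock-down arrays and from 14.01 to 14.08 on the Luc arrays. Of these 10 markers 5 fell, Nanog (-0.83) and Pou5f1 (-0.55) among them, and Lin28a rose (0.42). Among all genes 22.6% were called, and 38.6% of those with a mean of at least 4. Whether the marker lists of this paragraph depart from these shares was not tested. Of 9 fibroblast markers, 7 had a mean under 4 in both groups. Col1a1 and Col1a2 were among them, and so was Col3a1, which reached 4.69 and 4.25 on knock-down arrays 1 and 2 (within replicates 1 and 2, 1.35, adjusted p = 0.0127). Thy1 was the only fibroblast marker called over all arrays, and it fell (-0.56, limma adjusted p = 0.0248). The 6 simple epithelium markers (keratins, Epcam and Cdh1) averaged 11.03 to 11.39 on the knock-down arrays and 10.01 to 10.53 on the Luc arrays. Of them 3 rose (Krt7, Krt19 and Cdh1), Krt7 by the most (2.83). Krt8, Krt18 and Epcam were not called over all arrays. Krt18 passed in each pair of replicates alone (0.40 and 0.55, limma adjusted p = 0.0311 and 0.0180). Krt8 passed within replicates 1 and 2 (0.52, adjusted p = 0.00755) and not within replicates 3 and 4 (0.51, adjusted p = 0.0901). The part of these shifts in the results below was not tested. Across all probe sets the arrays also differed between replicates 1 and 2 and replicates 3 and 4, on the second principal component (11.6% of the variance). The labels name no batch, so the changes within these pairs of replicates are given where they matter.

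Among the 9 genes, 2 were called lower, 2 were called higher and 5 were not called. Cldn3 and Tjp3 fell to less than 50% of the control signal, Cldn6 rose 1.60-fold, and Tjp1 rose 1.17-fold. Cldn4, Cldn7, Ocln, F11r and Cgn were not called, with changes between -0.14 and 0.19 on the log2 scale. Among all 18193 genes 22.6% were called, 10.1% as higher and 12.6% as lower. All 9 genes had a mean of at least 4, and among the 10299 genes that did so 38.6% were called, so 4 called genes out of 9 is near the share of genes with signal. The median change of the 9 genes was 0.09, against 0.003 over all genes. By probe set, 2 of 15 rose and 3 fell, where 14.9% of all probe sets were called, 6.47% as higher and 8.40% as lower. The 4 called genes are also those whose groups did not overlap, which was the case at 27.8% of all genes, 12.6% with the knock-down arrays above and 15.2% with them below. By probe set the groups did not overlap at 6 of 15, against 19.4% of all probe sets (8.75% above and 10.6% below). All Cldn3 probe sets but the dimmest are among these 6. The shares without overlap include features on the plateau, while 13 of the 15 probe sets had a mean of at least 4. Such a share among features with that mean was not computed.

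**Figure D1:**
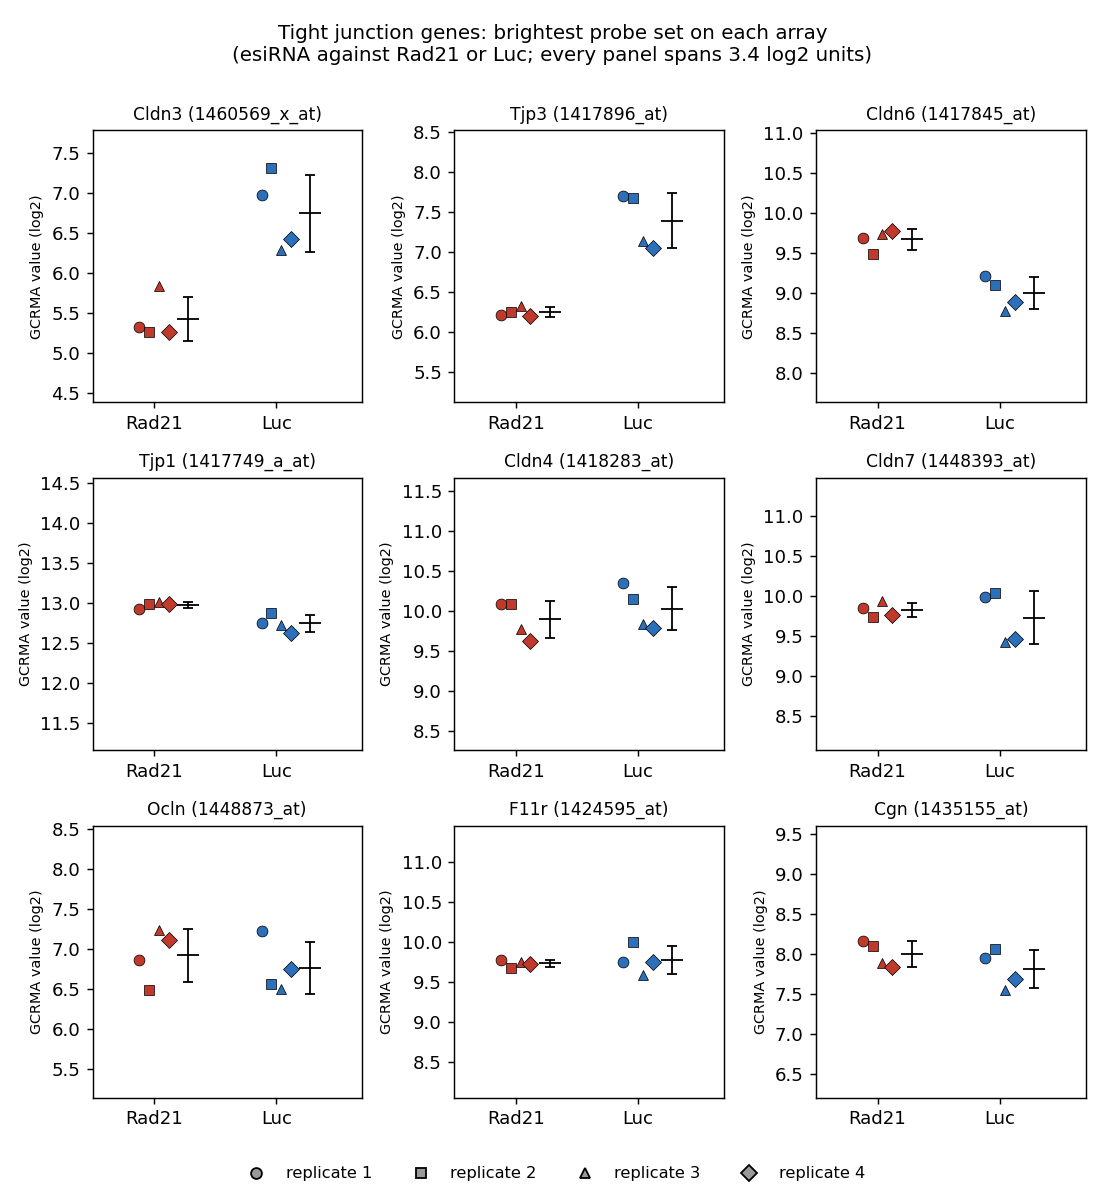
GCRMA values (log2) of the brightest probe set of each of the 9 genes on every array, Rad21 knock-down at the left and Luc control at the right of each panel, with symbols for the replicate number and bars for the mean ± SD of each group (n = 4). The knock-down arrays lie below all Luc arrays for Cldn3 and Tjp3 and above all of them for Cldn6 and Tjp1, and overlap with them in the other 5 panels.

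The start sites of 3 of the 4 called genes (Cldn3, Cldn6 and Tjp3) and of Cldn4, the neighbour of Cldn3, are shown because they hold a short motif in common, which the window of Tjp1 lacks. The letters CAGGTG, read as CACCTG from the other strand, are the E-box that the repressors Snail and Zeb bind in front of epithelial genes. It was found on either strand in 9 of 12 RefSeq windows of the 9 genes (75.0%), against 20.2% of all 32851 windows of the same length, each running from 250 bases before to 50 bases after a start site in GRCm38.p6. The 2 Ocln windows overlap and share 1 of these matches. Counted by gene it was present for 7 of 9 (all but Tjp1 and Cgn) and for 22.6% of 27025 genes. In G and C the windows of the 9 genes ran from 45.3% at the first start of Tjp3 to 70.3% at Cgn. Most of them lay above the median of all windows (52.7%). The part of base composition in the share with the motif was not tested. In the windows below, read 5′ to 3′ on the strand of the gene, the capitals mark each match.
Cldn3, chr5:134985964-134986263, plus strand: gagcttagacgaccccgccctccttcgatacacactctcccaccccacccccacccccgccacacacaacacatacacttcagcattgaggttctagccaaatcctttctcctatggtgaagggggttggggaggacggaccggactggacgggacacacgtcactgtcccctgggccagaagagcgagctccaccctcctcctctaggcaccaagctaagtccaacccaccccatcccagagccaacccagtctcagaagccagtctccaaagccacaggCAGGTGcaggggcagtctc
Cldn4, chr5:134946885-134947184, minus strand: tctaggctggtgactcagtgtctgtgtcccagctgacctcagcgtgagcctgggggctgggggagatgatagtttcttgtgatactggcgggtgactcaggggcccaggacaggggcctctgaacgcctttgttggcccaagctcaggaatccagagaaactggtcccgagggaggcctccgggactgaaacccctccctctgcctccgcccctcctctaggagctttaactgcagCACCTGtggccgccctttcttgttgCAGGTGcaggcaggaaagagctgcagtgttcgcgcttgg
Cldn6, chr17:23679115-23679414, plus strand: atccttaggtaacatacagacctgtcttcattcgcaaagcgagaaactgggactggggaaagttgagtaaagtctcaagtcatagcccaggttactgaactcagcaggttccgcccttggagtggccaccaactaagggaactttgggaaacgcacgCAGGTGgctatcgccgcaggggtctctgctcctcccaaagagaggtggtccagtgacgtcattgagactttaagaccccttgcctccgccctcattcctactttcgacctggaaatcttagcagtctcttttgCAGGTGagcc
Tjp3, chr10:81291532-81291831, minus strand: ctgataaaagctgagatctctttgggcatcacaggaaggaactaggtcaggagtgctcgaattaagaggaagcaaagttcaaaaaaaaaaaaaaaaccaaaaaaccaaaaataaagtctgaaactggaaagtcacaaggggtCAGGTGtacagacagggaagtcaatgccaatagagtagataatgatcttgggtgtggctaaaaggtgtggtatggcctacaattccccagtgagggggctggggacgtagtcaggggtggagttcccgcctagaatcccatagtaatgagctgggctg
The motif lay 14 bases before the start of Cldn4 and again 12 bases into its transcript. At Cldn6 it lay 93 bases before the RefSeq start used and again 41 bases into the transcript. That start is not the outermost start of the gene. At Tjp3 the motif lay 108 bases before the start shown and, in a window not shown, 17 bases before another start. At Cldn3 it lay within the transcribed part. It was thus present at genes that fell, at Cldn6, which rose, and at Cldn4, which was not called. The forkhead motif TGTTTAC was present on either strand in 3.65% of all windows, and the palindromic Grainyhead-like motif AACCGGTT in 0.146%. Neither was found in the 12 windows. A match says only that the letters are there.

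Cldn3, a claudin that tightens the barrier, showed the deepest fall of the 9 genes. At its brightest probe set (1460569_x_at) it had values of 5.32, 5.25, 5.83 and 5.26 on knock-down arrays 1 to 4, against 6.97, 7.30, 6.28 and 6.42 on Luc arrays 1 to 4. Every knock-down array was below every Luc array, and the Luc arrays 1 and 2 stood above the Luc arrays 3 and 4. The change was -1.33 ± 0.25 (SE, n = 4 each, limma adjusted p = 0.0106), which left 39.9% of the control signal. Within replicates 1 and 2 the fall was deeper (-1.85), and within replicates 3 and 4 the difference was -0.80 and did not pass on its own (adjusted p = 0.167).

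The size of the Cldn3 fall depended on the probe set. The names of the 2 brightest of its 4 probe sets end in _x_at, which marks probes that can also pair with other transcripts, and these were the called ones. The second (1451701_x_at) had 5.23, 4.45, 4.56 and 5.76 on the knock-down arrays and 7.19, 7.75, 6.79 and 6.36 on the Luc arrays, a change of -2.02 ± 0.38 (SE, limma adjusted p = 0.0108). The third (1434651_a_at) had 5.17, 3.80, 5.33 and 5.39 on the knock-down arrays and 6.91, 6.72, 5.86 and 5.95 on the Luc arrays. Its groups did not overlap, but its difference of -1.44 missed the threshold (adjusted p = 0.0618). The dimmest (1426332_a_at) lay between 4.36 and 4.46 on the knock-down arrays, where only Luc arrays 1 and 2 stood higher (5.69 and 4.90) and Luc arrays 3 and 4 were at 4.43 and 4.45. All 4 probe sets thus had a negative difference, and the call rests on the 2 of the _x_at kind.

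**Figure D2:**
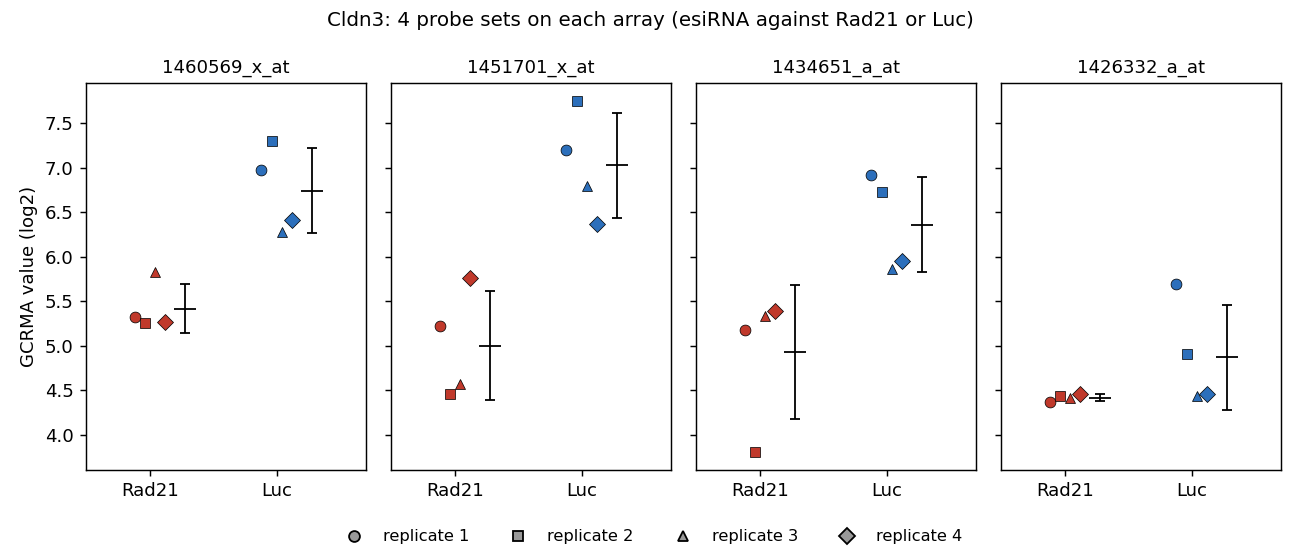
GCRMA values (log2) of the 4 Cldn3 probe sets, brightest at the left, on each array of the Rad21 knock-down (left of each panel) and the Luc control (right), with the group mean and SD (n = 4). The groups are apart at the first 3 probe sets and overlap at the dimmest, where all arrays but Luc 1 and 2 lie between 4.36 and 4.46.

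Cldn4, which lies next to Cldn3 on chromosome 5 in the RefSeq order and also tightens the barrier, did not pass the test. It had 10.09, 10.09, 9.78 and 9.62 on the knock-down arrays and 10.35, 10.14, 9.84 and 9.78 on the Luc arrays, so that the groups overlapped and arrays 1 and 2 were the higher ones in both. The difference was -0.14 (95% interval -0.51 to 0.24, adjusted p = 0.769). This interval does not meet that of Cldn3 (-1.91 to -0.74), though the difference between the neighbours was not itself tested.

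Cldn6, a claudin of early embryonic epithelia that is largely silent in adult tissue, was the member with the largest rise. It had 9.69, 9.48, 9.74 and 9.77 on the knock-down arrays and 9.21, 9.10, 8.78 and 8.89 on the Luc arrays. The lowest knock-down array lay above the highest Luc array. The change was 0.67 ± 0.11 (SE, n = 4 each, limma adjusted p = 0.00507), with 0.43 in replicates 1 and 2 (adjusted p = 0.0566) and 0.92 in replicates 3 and 4 (adjusted p = 0.0109). The difference between these pairs, 0.49 ± 0.12 (SE), did not pass the interaction test (adjusted p = 0.154). The neighbour of Cldn6 on chromosome 17 is Cldn9, whose brightest probe set had 5.14, 5.50, 6.37 and 6.33 on the knock-down arrays and 7.24, 7.35, 6.57 and 6.57 on the Luc arrays. Its groups did not overlap, but its difference of -1.10 did not pass over all arrays (limma adjusted p = 0.0753). It passed in each pair alone, with -1.97 within replicates 1 and 2 (adjusted p = 0.00441) and -0.22 within replicates 3 and 4 (adjusted p = 0.0309). The difference between the pairs passed as well (interaction adjusted p = 0.0295).

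Cldn7, found along the sides of epithelial cells as well as at the junction, had 9.86, 9.74, 9.94 and 9.77 on the knock-down arrays, and 9.99, 10.05, 9.43 and 9.47 on the Luc arrays. The knock-down arrays lay between the pairs of Luc arrays. The difference of 0.09 (95% interval -0.27 to 0.45, adjusted p = 0.863) was made of -0.22 in replicates 1 and 2 and 0.40 in replicates 3 and 4. A test of the difference between the pairs did not pass either (adjusted p = 0.0716).

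The other membrane proteins of the strand did not pass. Occludin had 6.86, 6.49, 7.24 and 7.11 on the knock-down arrays and 7.22, 6.56, 6.50 and 6.75 on the Luc arrays (difference 0.17, 95% interval -0.32 to 0.66, adjusted p = 0.793). Its groups overlapped throughout, and its second, dimmer probe set differed by -0.08 (adjusted p = 0.707). F11r had 9.77, 9.67, 9.75 and 9.72 on the knock-down arrays and 9.74, 9.998, 9.59 and 9.75 on the Luc arrays. All values but those of Luc arrays 2 and 3 lay between 9.67 and 9.77, and the difference was -0.04 (95% interval -0.23 to 0.15, adjusted p = 0.891). The interval leaves room for a change of at most 0.23 in size at this probe set, whereas that of occludin is wider. The second F11r probe set stayed on the plateau, at 2.96 to 3.07 over all 8 arrays.

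The scaffolds below the membrane went in both directions. Tjp3 had 6.21, 6.25, 6.33 and 6.20 on the knock-down arrays and 7.70, 7.67, 7.14 and 7.05 on the Luc arrays. The knock-down arrays were close together (SD 0.06) and all below the Luc arrays, whose SD was 0.34. The change was -1.14 ± 0.16 (SE, n = 4 each, limma adjusted p = 0.00256), leaving 45.4% of the control signal. Replicates 1 and 2 gave -1.45 and replicates 3 and 4 gave -0.83, both passing (adjusted p = 0.00199 and 0.0168), and the difference between the pairs of 0.62 ± 0.08 (SE) passed as well (interaction adjusted p = 0.0449). Only 1.03% of all genes passed that interaction test, and Tjp3 was the only one of the 9 to do so. The knock-down means of the pairs were 6.23 and 6.27, while the Luc means were 7.68 and 7.10.

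Tjp1, at its only probe set, had 12.92, 12.99, 13.01 and 12.99 on the knock-down arrays and 12.75, 12.88, 12.73 and 12.63 on the Luc arrays. The groups did not overlap, although the gap between knock-down array 1 and Luc array 2 was small. The change of 0.23 ± 0.05 (SE, n = 4 each, limma adjusted p = 0.0226) passed in replicates 3 and 4 (0.32, adjusted p = 0.0455) and not in replicates 1 and 2 (0.14, adjusted p = 0.333). This call ended when any of knock-down arrays 2, 3 or 4 or Luc arrays 1 or 3 was left out, with adjusted p of up to 0.0622. Cgn had 8.16, 8.10, 7.88 and 7.83 on the knock-down arrays and 7.94, 8.07, 7.54 and 7.68 on the Luc arrays. Arrays 1 and 2 were above arrays 3 and 4 in both groups, which then overlapped, and the difference of 0.19 (95% interval -0.12 to 0.49) did not pass (adjusted p = 0.524). With the pairs of replicates as a block it passed (adjusted p = 0.0407). The second Cgn probe set was on the plateau, at 2.38 to 2.60.

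**Figure D3:**
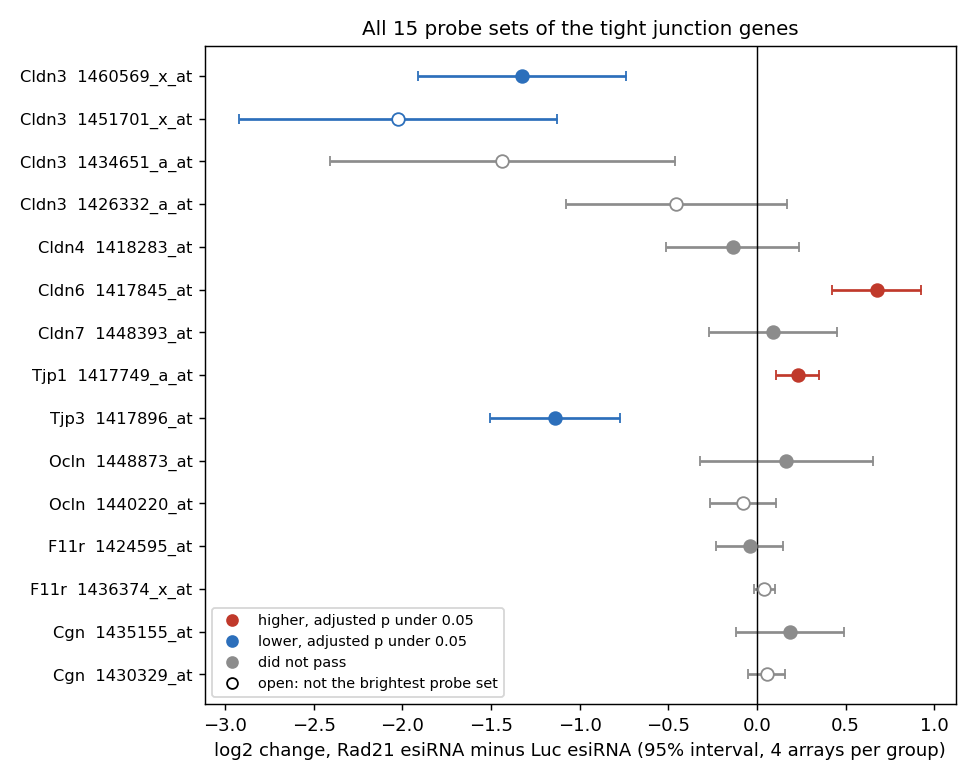
Log2 difference of the knock-down arrays from the Luc arrays (4 each) with its 95% interval for all 15 probe sets; filled points are the brightest probe set of a gene and open points the others, red marks a rise and blue a fall at an adjusted p under 0.05. Cldn3 (-1.33 at its brightest probe set) and Tjp3 (-1.14) lie at the left, Cldn6 (0.67) and Tjp1 (0.23) at the right of 0, and the intervals of the other 5 genes' brightest probe sets span 0.

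The pairs of replicates moved several of these genes apart. The change was of opposite sign in the pairs for 3 of the 9 genes (Cldn7, Ocln and F11r), as it was for 35.2% of all genes, and none of the 3 was called over all arrays. For the 4 called genes the sign was the same in both pairs. Tested alone, replicates 1 and 2 called Cldn3 and Tjp3 (19.9% of all genes), and replicates 3 and 4 called Cldn6, Tjp1 and Tjp3 (15.3%). All 9 changes were more positive in replicates 3 and 4 than in replicates 1 and 2. The share of all genes with such a shift was not computed, so this is not read as a trait of the 9. For Cldn3, Tjp3 and Cldn7 the Luc arrays carried this, with means of 7.14, 7.68 and 10.02 in Luc replicates 1 and 2 and of 6.35, 7.10 and 9.45 in Luc replicates 3 and 4.

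**Figure D4:**
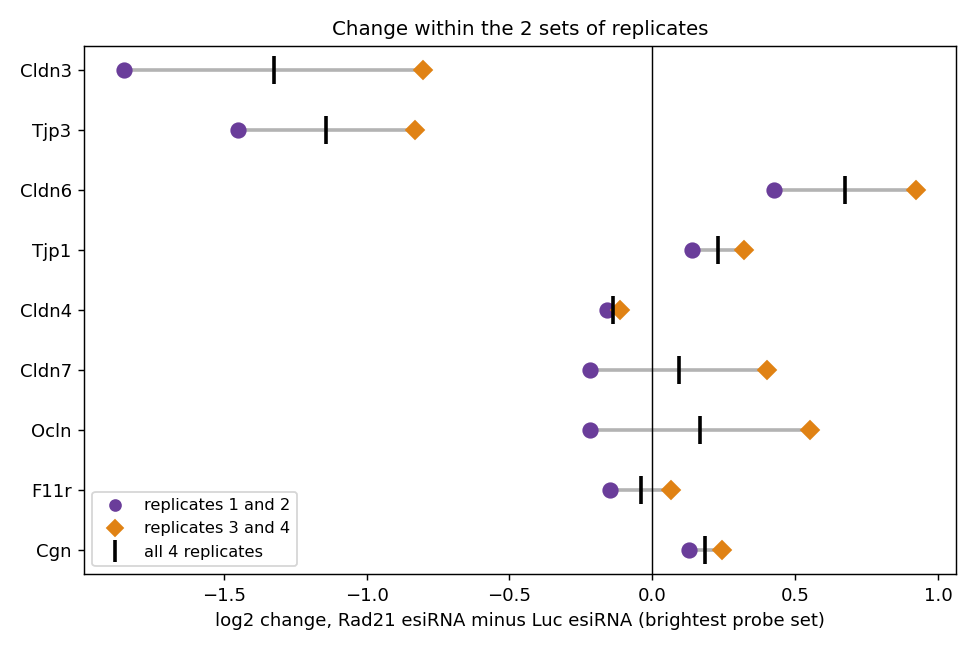
Log2 difference of the knock-down arrays from the Luc arrays for the brightest probe set of each of the 9 genes, computed within replicates 1 and 2 (circles), within replicates 3 and 4 (diamonds) and over all 4 replicates (bars). The diamond lies to the right of the circle for every gene, from -1.85 to -0.80 for Cldn3 and from -0.22 to 0.40 for Cldn7.

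The wider set of junction genes also moved in both directions. Of 20 other claudins measured (Cldn17, Cldn20 and Cldn24 were not analysed here), 17 were under 4 in both groups, so that Cldn9, Cldn12 and the claudin-domain gene Cldnd1 were the only ones above it. Of these Cldn12 rose at both of its probe sets, to 11.14 ± 0.02 on the knock-down arrays against 10.74 ± 0.06 on the Luc arrays at the brighter (SD, n = 4; change 0.40, limma adjusted p = 2.67e-04). Of 30 other tight junction proteins 7 rose and 6 fell, with a median change of 0.03. All 13 called genes were among the 28 of this list with a mean of at least 4, beside 38.6% called among all genes with such a mean. Whether this list or the 2 lists that follow depart from that share was not tested. Rises were seen for Marveld2, which encodes tricellulin of the corners between 3 cells and is the neighbour of Ocln on chromosome 13 (1.33 ± 0.15, SE), and for Cgnl1, the paralogue of cingulin (0.86 ± 0.16). Lsr, which brings tricellulin to those corners, rose by 0.54 ± 0.09. Its relative Ildr1 fell (-1.05 ± 0.16), and so did Jam2, a relative of F11r, at all 5 of its probe sets (-1.26 ± 0.09 at the brightest). Within replicates 3 and 4 alone, Lsr and Ildr1 did not pass (limma adjusted p = 0.0934 and 0.0566).

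Several polarity proteins that sit at the tight junction changed. Patj (2.15 ± 0.34, SE, limma adjusted p = 0.00475) and its paralogue Mpdz (1.14 ± 0.07, adjusted p = 8.21e-05), scaffolds of the Crumbs complex, rose. At its brightest probe set Patj averaged 7.15 ± 0.26 on the knock-down arrays and 4.998 ± 0.70 on the Luc arrays (SD, n = 4), and in neither pair of replicates alone did it pass (adjusted p = 0.0616 and 0.0666). Of the Par complex, the adaptor gene Pard6a (-0.64 ± 0.08) and the kinase gene Prkci (-0.51 ± 0.05) fell, while the Pard6a paralogue Pard6g rose (0.35 ± 0.07). Pard6g was called at 1 of 2 probe sets and did not pass in replicates 1 and 2 alone (limma adjusted p = 0.156). Pard3, Pard6b and Prkcz were not called at their brightest probe sets, and 1 of 4 Pard3 probe sets was called higher. Arhgef2, an exchange factor for RhoA that binds cingulin, fell by 0.49 ± 0.09 on the log2 scale. It did not pass in replicates 3 and 4 alone (limma adjusted p = 0.106). For Patj 2 of 4 probe sets were called, for Mpdz 1 of 4, for Cgnl1 1 of 5, for Lsr and Prkci 1 of 2 and for Arhgef2 2 of 3. With all probe sets of a gene averaged, the change was 1.03 for Patj, 0.31 for Mpdz, 0.18 for Cgnl1 and 0.27 for Lsr, each still called. Without the probe sets of the _x_at and _s_at kind Prkci was not called (-0.26, adjusted p = 0.476).

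Among 21 genes of the adherens junction and desmosome 5 rose and 3 fell, and the median change was 0.07. All 8 called genes were among the 18 of this list with a mean of at least 4, beside 38.6% called among all genes with such a mean. E-cadherin (Cdh1), which holds ESCs together, rose to 14.38 ± 0.06 on the knock-down arrays against 13.97 ± 0.07 on the Luc arrays (SD, n = 4; 0.41, limma adjusted p = 8.71e-04). The desmosome genes Dsp (0.84 ± 0.17, SE) and Perp (1.43 ± 0.17) and the plakin gene Evpl (1.41 ± 0.10) also rose, as did Vcl, which encodes the actin linker vinculin (0.46 ± 0.07). The desmosomal cadherin gene Dsg2 fell (-0.63 ± 0.08), and Nectin2 (-0.26 ± 0.06) and the alpha-catenin gene Ctnna1 (-0.14 ± 0.03) were lower by little. The call of Nectin2 was lost under 12 of 20 alternatives, the plain analysis of variance among them (adjusted p = 0.0699), and when knock-down array 1 or any 1 of the 4 Luc arrays was left out (adjusted p of up to 0.0863). That of Ctnna1 was lost in each pair of replicates alone (adjusted p = 0.161 and 0.0719). The called probe sets were 3 of 6 for Dsg2, 2 of 3 for Dsp, 2 of 4 for Ctnna1 and 1 of 2 for both Vcl and Nectin2.

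Of 22 regulators of epithelial genes 5 rose and 4 fell. All 9 called genes were among the 17 of this list with a mean of at least 4, beside 38.6% called among all genes with such a mean. Of them Foxa2, Foxa1 and Cdx2 reached that mean only through the knock-down arrays. The share in this list thus depends in part on the changes it counts. Of the factors that bind the E-box, Zeb1 was lower, at 7.78 ± 0.14 on the knock-down arrays against 8.13 ± 0.04 on the Luc arrays (SD, n = 4; change -0.36, limma adjusted p = 0.00948), and not in replicates 3 and 4 alone (adjusted p = 0.190). Only 1 of 4 Zeb1 probe sets was called, and the mean of the 4 differed by -0.074 (adjusted p = 0.0602). Zeb2 and Snai1 lay under 4 in both groups. Snai3 averaged 6.85 on the knock-down arrays and 7.12 on the Luc arrays and was not called (-0.26, limma adjusted p = 0.443). Snai2 had 6.43, 6.29, 5.10 and 5.54 on the knock-down arrays and 5.09, 5.20, 4.64 and 4.57 on the Luc arrays, and its difference of 0.96 did not pass over all arrays (adjusted p = 0.096). Within replicates 1 and 2 Snai2 rose by 1.21 (adjusted p = 0.00386), and within replicates 3 and 4 its difference was 0.72 (adjusted p = 0.129). Twist1, a mesenchymal factor of another E-box type, rose (1.36 ± 0.25, SE), but in neither pair of replicates alone (adjusted p = 0.0845 and 0.0586). Of the Grainyhead-like genes, Grhl1 (-0.23) and Grhl2 (0.16) were not called over all arrays. Grhl3 (-0.96 ± 0.15), Klf5 (-1.0 ± 0.09) and the trophoblast factor gene Tfap2c (-0.66 ± 0.12), which act in epithelia, fell. Esrp1, a splicing factor of epithelial cells, rose (0.48 ± 0.07). The forkhead genes Foxa2 (4.63 ± 0.16) and Foxa1 (3.03 ± 0.24) and the trophectoderm gene Cdx2 (1.10 ± 0.15) rose as well, with Luc means under 4 (2.77, 2.64 and 3.57), near or on the plateau. Within replicates 3 and 4 alone Tfap2c and Cdx2 did not pass (limma adjusted p = 0.102 and 0.0562). Within replicates 1 and 2 alone Esrp1 did not pass (adjusted p = 0.0783). For Klf5 2 of 3 probe sets were called, and for Cdx2 1 of 2.

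**Figure D5:**
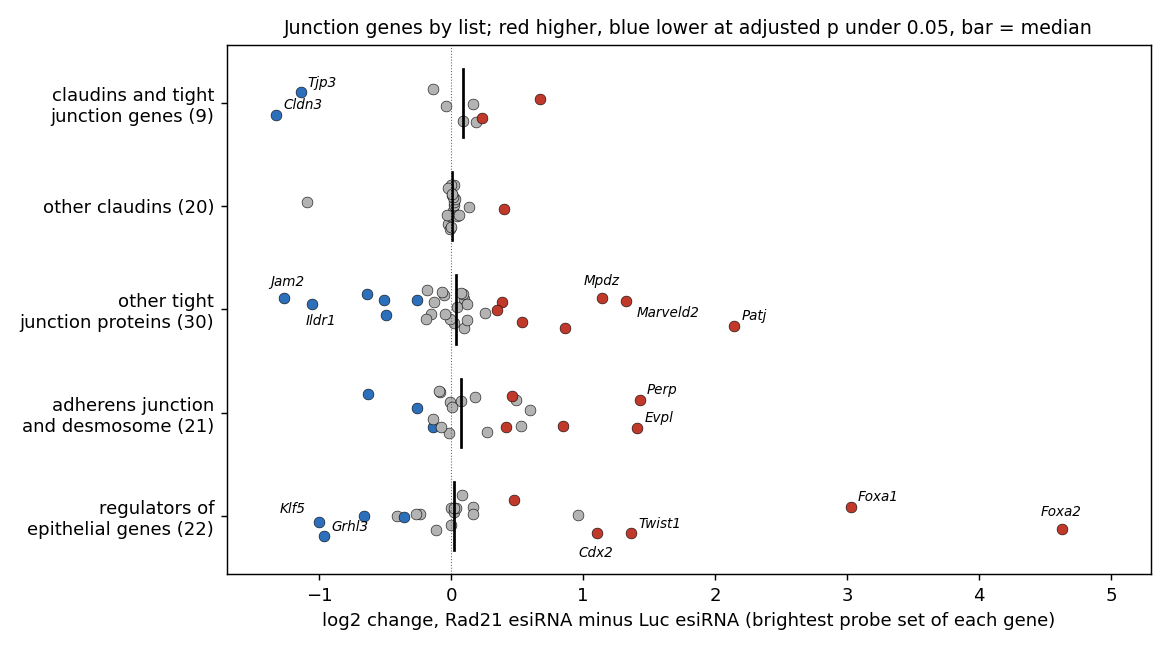
Log2 difference of the knock-down arrays from the Luc arrays for the brightest probe set of every measured gene in 5 lists, with the number of genes in brackets; red marks a rise and blue a fall at an adjusted p under 0.05, grey did not pass, and the black bar is the list median. The medians of the lists lie between 0.009 and 0.09, with genes on both sides in each list.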

How the data were processed

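RNA of 8 R1/E cultures was hybridised to 1-colour Affymetrix mouse whole-genome arrays. The authors made the deposited log2 values in Partek 6.4 with GCRMA (per the labels), which models background from the GC content of probes, equalises the arrays and gives 1 value for each probe set. Because the arrays are equalised, a shift of the whole transcriptome would not be seen, and it pulls dim signals to a plateau.

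After 64 control probe sets were left out, 45037 probe sets were fitted by group with limma 3.58.1 (lmFit and eBayes, R 4.3.3), without a filter or block. Tests were two-sided and adjusted by Benjamini-Hochberg over all probe sets. The number of arrays limits the precision. A plain analysis of variance, the test named in the methods, was run as an alternative, as were blocks, filters, other normalizations and leaving out arrays. Gene symbols came from the platform annotation, of which 34945 probe sets had 1 symbol, 932 several and 9160 none here. By Entrez ID 34741 of these symbols were matched to RefSeq (GRCm38.p6), with 0 changed. Start-site windows and gene order came from that assembly, and the arrays themselves carry no coordinates.

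Named genes are the 9 members with every probe set, Rad21, and in each wider list up to 5 called genes in each direction. The members and lists were chosen with earlier results of these data known. Cldn9, Cldnd1, Snai1, Snai2, Zeb2, the other Par complex genes, the single marker genes, the motifs and the interaction test of the pairs of replicates were chosen after values were seen. So were Snai3, Grhl1 and Grhl2. The test was checked on simulated data. Plots were drawn with matplotlib 3.10.9.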

Additional observations from a re-analysis of the deposited data

Results flagged for a closer look

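Of 36 groups of 4 arrays examined (15 probe sets of the 9 genes and 3 of Rad21, in each group), 3 held an array far from the other 3 by Dixon's criterion, and chance marks about 1 in 20 groups. The brightest Cldn3 probe set (1460569_x_at) had 5.83 on knock-down array 3, against 5.25 to 5.32 on the other knock-down arrays. The third Cldn3 probe set (1434651_a_at) had 3.80 on knock-down array 2, against 5.17 to 5.39 on the other knock-down arrays. The dimmer Ocln probe set (1440220_at) had 5.14 on Luc array 1, against 4.79 to 4.80 on the other Luc arrays.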

How the results depend on the processing

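Tjp3 kept its fall and its call under all 20 alternatives (-1.45 to -0.83), and Cldn6 its rise under all 20 (0.43 to 0.92), losing the call in replicates 1 and 2 alone. Tjp1 lost its call under 8 of 20 alternatives, the plain analysis of variance among them (adjusted p = 0.0513). Cldn3 lost it in replicates 3 and 4 alone, without _x_at and _s_at probe sets (-1.44, adjusted p = 0.0648) and under the replicate block (adjusted p = 0.0507). Called genes of the 9 numbered 4, and called probe sets 5. These counts were 2 and 2 with the replicate number as a block and also at an adjusted p under 0.01, and 2 and 3 in replicates 1 and 2 alone. Without _x_at and _s_at probe sets 3 probe sets were called. Leaving out 1 array at a time gave 3 to 4 genes and 4 to 5 probe sets of the members, 5395 to 6210 of all probe sets, and 1 to 2 of the other claudins.

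Over all probe sets 6697 were called, and 3893 at an adjusted p under 0.01. The count of other claudins was 1, and it was 2 in replicates 1 and 2 alone, in replicates 3 and 4 alone, at a minimum mean of 4 and when the probe sets of a gene were averaged. Of the named genes, 4 changed sign under an alternative, and the changes of all 4 were small. Cldn7 (-0.22) and Ocln (-0.22) turned in replicates 1 and 2 alone, and F11r in replicates 3 and 4 alone (0.065), with array weights (0.027) and with the mean of its probe sets (3.61e-04). Ctnna1 turned with the mean of its probe sets (0.088) and lost its call when centred on bright probe sets (adjusted p = 0.0616). Without 1 array, Cldn7 ran from -0.0074 to 0.20 and F11r from -0.10 to 0.035. Quantile normalization and centring on bright probe sets moved the median change of all probe sets by -0.01 and 0.03.

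The replicate numbers did not pair the arrays. Deviations of same-numbered arrays from their group means correlated across probe sets at 0.02 to 0.13, and those of other pairs at -0.19 to 0.20.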

Other observations

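Tek, a receptor kinase known from endothelium, stood among the 6 endothelial markers as the only called gene, beside 22.6% called among all genes. It had 9.22, 9.22, 9.03 and 9.09 on the knock-down arrays and 7.57, 7.73, 7.56 and 7.58 on the Luc arrays, which differ by 1.53 ± 0.06 (SE, limma adjusted p = 1.31e-05). Of the other endothelial markers, Cdh5, Kdr and Cldn5 lay on the plateau in both groups, at 1.77 to 2.41 on the knock-down arrays and 1.76 to 2.46 on the Luc arrays. Pecam1 (means 6.42 on the knock-down arrays and 6.57 on the Luc arrays) and Esam (5.72 and 5.98) lay above it and were not called. Tek was chosen for this paragraph after its values were seen.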
